A study of Mus musculus with 12 samples.

Results

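The mitosis genes described here are 42 genes chosen by symbol from a list by function: mitotic kinases, cyclins, kinesins, and genes of the kinetochore, spindle checkpoint and cytokinesis. All 42 symbols had a row in the count table of 53599 genes. All 42 also passed the filter on low counts, which left 14798 genes for testing. The list names symbols and no measured value, but it was chosen with earlier results of these data known. Cells enter mitosis when cyclin B activates the kinase Cdk1; chromosomes then condense, attach to spindle microtubules through their kinetochores, and are held by the spindle checkpoint until every pair is attached. The anaphase-promoting complex with its activator Cdc20 next marks cyclin B and securin for destruction, separase opens the cohesin rings, and the central spindle and a contractile ring split the cell. Hepatocytes of the adult liver rarely divide, can re-enter the cycle after tissue loss, and often become polyploid when cytokinesis is left incomplete.

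The study sequenced RNA of cultured mouse liver cells in 12 libraries to ask how far the cells can take on hepatocyte or biliary traits. The hepCLiP cells were derived from hepatocytes and the bilCLiP cells from biliary epithelial cells (BEC), per the labels. In the 3D groups, cells from the 2D cultures were aggregated in microwells for 3 days in serum-free small hepatocyte medium with YAC, then held for 6 to 8 days in suspension in the medium with YAC and oncostatin M, an interleukin-6-family cytokine, at 10 ng/ml; the labels name the absence of serum for the microwell step. In the 2D groups, cells were maintained on collagen-coated plates in small hepatocyte medium with YAC and 10% fetal bovine serum. YAC stands for Y-27632, a kinase inhibitor, A83-01, a TGF-beta receptor inhibitor, and CHIR99021, a GSK3 inhibitor, and both cultures received it. Each of the groups hepCLiP 3D, hepCLiP 2D, bilCLiP 3D and bilCLiP 2D held 3 libraries. In both hepCLiP groups, replicates 1 and 3 carried the multicolour reporter RosaConfetti and replicate 2 carried RosaYFP, and all bilCLiP libraries carried RosaYFP. No label gives an animal, a sex, an age or a culture behind each library, so the p-values below reflect variation among these libraries alone; in hepCLiP that variation includes the difference in reporter genotype. Geometry, serum, oncostatin M and time in culture differ together between 3D and 2D, and their parts cannot be told apart.

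Groups were taken from the sample titles, which the treatment tags contradict in 4 libraries. The tag of hepCLiP 2D replicate 3 names 3D induction, and those of the 3 bilCLiP 3D libraries name 2D maintenance. Levels are given as CPM, a gene's counts scaled to a common library size by TMM normalization. Libraries held 16142365 to 21253382 counts. All 7 hepatocyte markers (Alb, Apoa1, Ttr, Tat, Cps1, Hnf4a and Cebpa) rose with 3D culture in both origins; their summed level was 41604 to 51890 CPM in hepCLiP 3D against 342 to 1611 CPM in hepCLiP 2D, and 17402 to 43959 CPM in bilCLiP 3D against 180 to 1043 CPM in bilCLiP 2D. The library hepCLiP 2D replicate 3 stood at 1611 CPM, and the other hepCLiP 2D libraries at 1218 and 342 CPM. Of 7 biliary markers, 4 fell and 1 rose in hepCLiP 3D, and 2 fell and 1 rose in bilCLiP 3D, the 1 being Spp1 in each. Their summed level was 11321 to 15668 CPM in hepCLiP 3D against 3187 to 5942 CPM in hepCLiP 2D, and 13640 to 33326 CPM in bilCLiP 3D against 5483 to 10408 CPM in bilCLiP 2D. Spp1 made up 98.07% to 99.2% of that sum in the 3D groups and 38.7% to 86.9% in the 2D groups. The 6 other biliary markers together had 160 to 218 CPM in hepCLiP 3D against 871 to 1953 CPM in hepCLiP 2D, and 219 to 327 CPM in bilCLiP 3D against 881 to 1961 CPM in bilCLiP 2D; Epcam stayed at or under 7.48 CPM and Cftr at or under 2.02 CPM in every library of all 4 groups. Endothelial markers summed to at most 3.70 CPM and immune markers to at most 20.0 CPM, with Cd3e at 0 counts in every library. Fibroblast and stellate markers summed to 284 CPM in hepCLiP 3D replicate 1, of which Dcn made 282 CPM, and to at most 19.1 CPM in every other library. The 4 mesothelial markers, of which only Msln passed the filter, summed to 5.57 to 27.9 CPM in the 3D groups and 333 to 989 CPM in the 2D groups. Nearly all of that sum was Msln, as Wt1, Lrrn4 and Upk3b had at most 0.3645, 0.185 and 0.1499 CPM in any library. Whether these marker shifts reflect a change of cell types, and their part in the results below, was not tested.

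The mitosis genes fell with 3D culture in both origins, without exception. The summed level of the 42 genes was 537, 162 and 408 CPM in hepCLiP 3D replicates 1, 2 and 3, against 2148, 2407 and 2801 CPM in hepCLiP 2D (mean ± SD 369 ± 191 CPM and 2452 ± 329 CPM, n = 3 each). In bilCLiP it was 424, 188 and 404 CPM in 3D, against 2258, 1923 and 1218 CPM in 2D (339 ± 131 CPM and 1800 ± 531 CPM, n = 3 each). No 3D library reached the level of any 2D library. Counted without any scaling, the members took 0.0123% to 0.0413% of a library's counts in the 3D groups of both origins, against 0.146% to 0.326% in the 2D groups. Set against the 2D library of the same number, the 3D sum was 25.0%, 6.72% and 14.6% in hepCLiP and 18.8%, 9.78% and 33.1% in bilCLiP. In each of these 6 pairs, all 42 genes were lower in 3D. The level is that of bulk RNA, in which fewer dividing cells and less RNA per cell cannot be told apart.

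**Figure D1:**
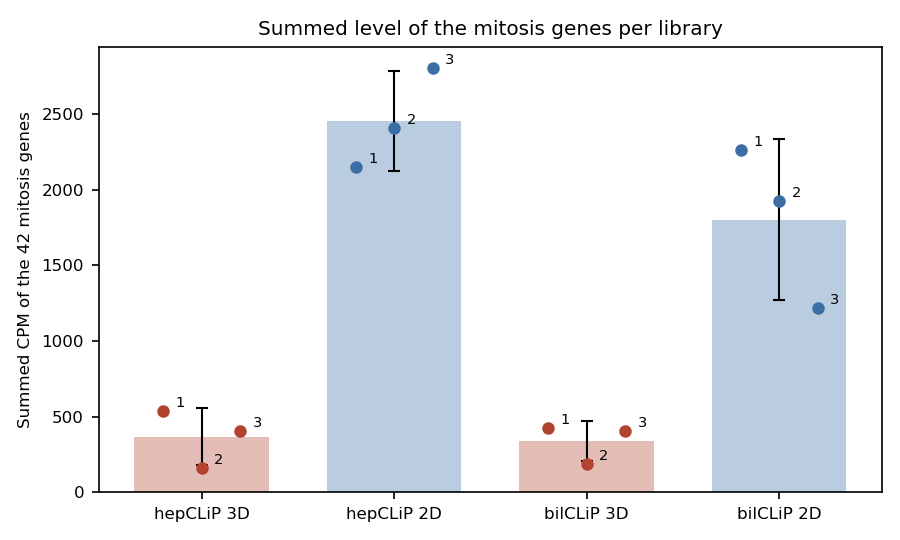
Summed CPM of the 42 mitosis genes in each library (points, labelled with the replicate number), with the group mean (bars) and SD (error bars, n = 3). The 6 libraries of 3D culture lie between 162 and 537 CPM, all below the 6 libraries of 2D culture at 1218 to 2801 CPM.

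Gene by gene, 42 of 42 were called lower in hepCLiP 3D than in hepCLiP 2D, where 17.9% of all tested genes were called lower. A call is an adjusted p under 0.05 in edgeR's quasi-likelihood test, with Benjamini-Hochberg adjustment over all 14798 genes, and all adjusted p-values given below come from this test. The median log2 fold change was -2.76, a 6.76-fold lower level, against -0.06 over all tested genes. Called falls of at least 4-fold were found for 40 members and for 727 of all 14798 tested genes. In bilCLiP, 42 of 42 were likewise called lower in 3D, against 14.5% of all tested genes. There the median log2 fold change was -2.51, a 5.71-fold lower level, against 0.00 over all tested genes. In bilCLiP, 34 members and 631 of all 14798 tested genes had called falls of at least 4-fold. Adjusted p-values ran from 0.000289 to 0.0108 in hepCLiP and from 0.00108 to 0.0198 in bilCLiP. The 3D and 2D libraries did not overlap for any of the 42 genes in either origin, while 24.5% of all tested genes were lower without overlap in hepCLiP, and 24.5% in bilCLiP. Being called lower in both origins applied to 12% of all tested genes.

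**Figure D2:**
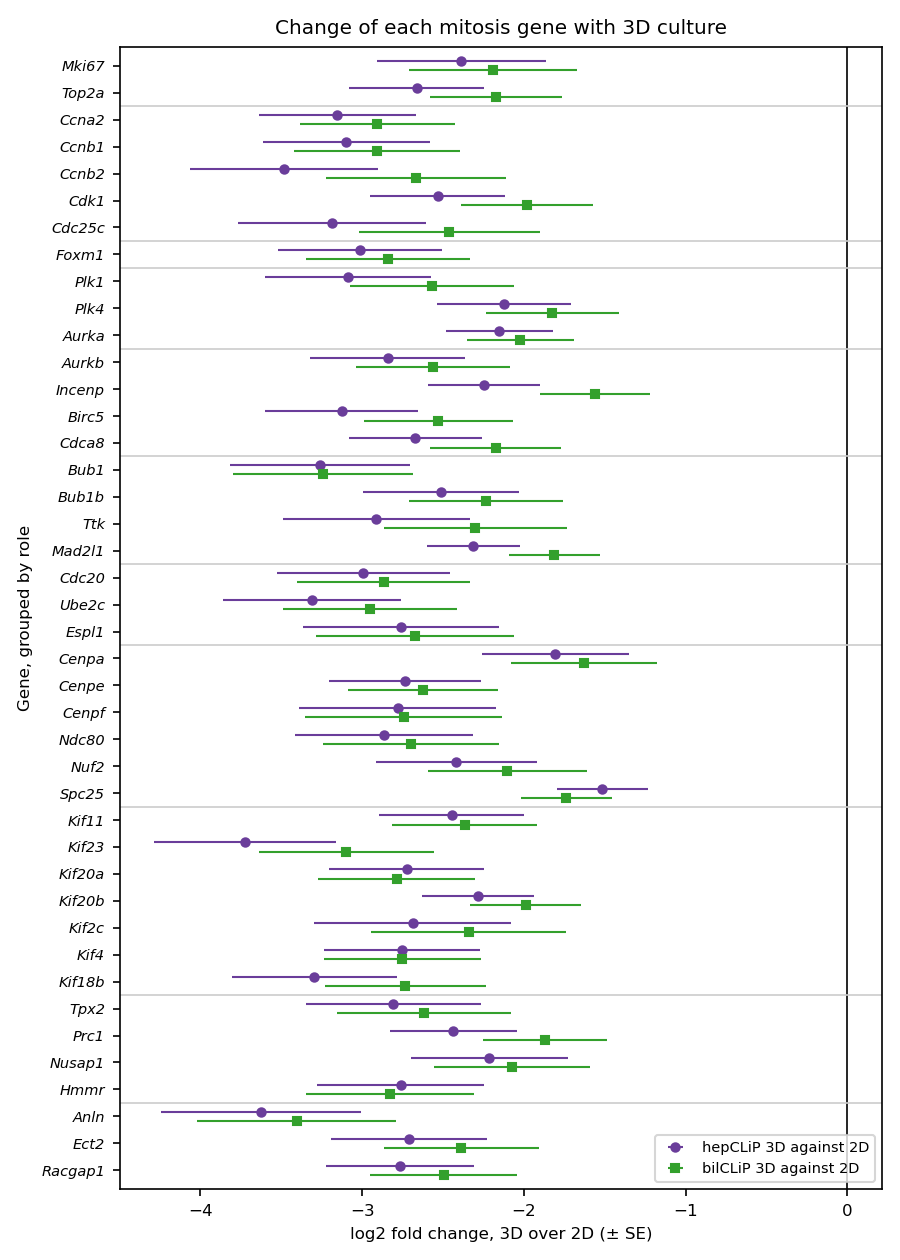
Log2 fold change of each mitosis gene, 3D over 2D, in hepCLiP (circles) and bilCLiP (squares), with SE as bars, grouped by role. All 84 values lie left of 0, from -3.72 for Kif23 in hepCLiP to -1.52 for Spc25 in hepCLiP.

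Promoter windows are printed for 6 members, to show the letters that many mitosis genes share before their values are given: Ccnb2, Plk1 and Cdk1 as central regulators, Kif23 and Anln with the largest falls in hepCLiP and bilCLiP, and Spc25 with the smallest fall in hepCLiP. Incenp, with the smallest fall in bilCLiP, is named only. The sequences are from RefSeq on build GRCm38.p6 (the counts were made on GRCm39), span 250 bases before to 50 bases after the gene's annotated start, and read 5′ to 3′ on the gene's strand. Capitals mark the matches to 3 motifs on either strand. These are the cell cycle genes homology region (CHR), spelled TTTGAA in one form and TTTAAA in the other, which the MuvB complex is known to bind, the CCAAT box, bound by NF-Y, and an E2F core. The E2F letters searched were TTTCCCG as one form, with TTTGGCG as another, then TTTGCCG as a further form and TTTCGCG as the last. Read on the opposite strand, the CCAAT box appears as ATTGG.
Ccnb2, chr9:70421505-70421804, minus strand: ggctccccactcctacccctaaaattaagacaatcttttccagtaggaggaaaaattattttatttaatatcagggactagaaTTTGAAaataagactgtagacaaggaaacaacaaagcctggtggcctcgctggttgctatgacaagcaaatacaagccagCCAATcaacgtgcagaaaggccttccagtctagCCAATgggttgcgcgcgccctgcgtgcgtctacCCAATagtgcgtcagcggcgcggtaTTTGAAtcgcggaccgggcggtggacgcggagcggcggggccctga
Plk1, chr7:122159185-122159484, plus strand: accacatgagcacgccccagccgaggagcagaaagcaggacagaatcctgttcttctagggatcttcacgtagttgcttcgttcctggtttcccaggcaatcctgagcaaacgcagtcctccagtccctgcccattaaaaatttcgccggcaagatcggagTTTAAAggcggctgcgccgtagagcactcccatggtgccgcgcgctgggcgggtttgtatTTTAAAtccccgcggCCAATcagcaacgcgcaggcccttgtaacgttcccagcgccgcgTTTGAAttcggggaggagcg
Cdk1, chr10:69352863-69353162, minus strand: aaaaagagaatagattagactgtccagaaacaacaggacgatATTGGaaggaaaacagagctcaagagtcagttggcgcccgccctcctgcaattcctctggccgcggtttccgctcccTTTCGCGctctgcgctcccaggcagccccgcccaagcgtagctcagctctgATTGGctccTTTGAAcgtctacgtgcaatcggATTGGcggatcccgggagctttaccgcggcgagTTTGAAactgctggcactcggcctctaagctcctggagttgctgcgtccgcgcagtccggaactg
Kif23, chr9:61946750-61947049, minus strand: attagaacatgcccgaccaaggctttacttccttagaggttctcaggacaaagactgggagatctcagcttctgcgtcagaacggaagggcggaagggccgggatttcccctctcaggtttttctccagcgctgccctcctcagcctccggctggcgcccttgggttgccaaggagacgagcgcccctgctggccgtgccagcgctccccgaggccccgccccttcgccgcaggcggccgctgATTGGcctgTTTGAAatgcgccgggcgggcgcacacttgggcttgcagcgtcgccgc
Anln, chr9:22389157-22389456, minus strand: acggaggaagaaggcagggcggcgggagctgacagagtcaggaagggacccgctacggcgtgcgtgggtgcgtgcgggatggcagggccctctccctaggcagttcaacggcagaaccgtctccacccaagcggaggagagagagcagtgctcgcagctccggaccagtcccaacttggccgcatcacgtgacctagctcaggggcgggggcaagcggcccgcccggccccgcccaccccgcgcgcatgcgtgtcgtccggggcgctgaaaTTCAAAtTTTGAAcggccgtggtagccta
Spc25, chr2:69206164-69206463, minus strand: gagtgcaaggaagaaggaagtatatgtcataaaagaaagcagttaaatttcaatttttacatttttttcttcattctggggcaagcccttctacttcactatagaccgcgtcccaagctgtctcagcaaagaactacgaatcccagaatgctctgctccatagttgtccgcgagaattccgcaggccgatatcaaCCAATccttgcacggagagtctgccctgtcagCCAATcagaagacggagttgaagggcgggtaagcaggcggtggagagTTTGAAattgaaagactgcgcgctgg
All 6 windows held a CHR, and Anln alone among them held no CCAAT box. In Kif23, Anln and Spc25, each CHR lay just after the annotated start, at positions 3, 22 and 29, and 25. Ccnb2 held 3 CCAAT boxes, at 87, 54 and 21 bases before the start, and Cdk1 held 3 of them and the only E2F core of the 6 windows. No 2 matches in these windows overlapped. A match describes letters only and not a bound site.

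A RefSeq window was at hand for 35 of the 42 members. The CHR was found in 31 of the 35 (88.6%), against 27.8% of all 27025 genes with a window and 19.6% of the tested genes. Within the last 150 bases of the window it was found in 28 members (80.0%), against 12.9% of all genes. A CCAAT box was found in 26 members (74.3%), against 37.9% of all genes and 39.1% of the tested genes. Both motifs together were found in 25 members (71.4%), against 10.9% of all genes and 7.99% of the tested genes. The E2F core was found in 4 members (11.4%), which were Cdk1, Birc5, Cdca8 and Nusap1, against 6.85% of all genes and 1196 of the 10826 tested genes with a window. Among the other genes called lower in both origins, 21.6% held a CHR. In the further lists of division genes described below, the share was 57.1% for condensin and for kinesins (4 of 7 each). It was 52.9% for centrosomes and spindle assembly, 48.3% for kinetochore genes and 35.7% for cytokinesis and abscission. The E2F and DREAM regulators had 31.6%, and S phase and the kinases and phosphatases 25.0% each. Cohesin had 20.0% and the anaphase-promoting complex 18.8%. The 4 members without a CHR in the window were Bub1, Mad2l1, Nuf2 and Nusap1. These shares are descriptions, and no test was made of them.

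Of the regulators of entry into mitosis, the cyclin genes Ccna2 and Ccnb1 were among the members with larger falls in both origins. The 5 genes of the cyclin-Cdk1 switch had median log2 fold changes of -3.15 in hepCLiP and -2.67 in bilCLiP. Cdk1, the kinase that drives mitosis, had 11.1, 7.73 and 21.4 CPM in hepCLiP 3D, against 52.9, 69.8 and 111 CPM in hepCLiP 2D. Its bilCLiP values were 19.6, 12 and 22.8 CPM in bilCLiP 3D, against 85.1, 77.6 and 51.48 CPM in bilCLiP 2D. Its log2 fold change was -2.53 ± 0.42 (SE; adjusted p = 0.00125) in hepCLiP and -1.98 ± 0.41 (adjusted p = 0.00474) in bilCLiP, the smallest fall of the 5 genes in each origin. Ccnb1, its partner cyclin B1, had 12.2, 2.98 and 13.3 CPM in hepCLiP 3D, against 77.9, 72.4 and 93.7 CPM in hepCLiP 2D. The bilCLiP libraries had 9.48, 4.19 and 11.6 CPM in bilCLiP 3D, against 74.6, 71.8 and 43.6 CPM in bilCLiP 2D. It fell 8.56-fold in hepCLiP (adjusted p = 0.00133) and 7.52-fold in bilCLiP (adjusted p = 0.00208). Ccnb2, the second B-type cyclin, fell 11.2-fold in hepCLiP (log2 -3.48 ± 0.58) and 6.34-fold in bilCLiP (log2 -2.67 ± 0.56). Ccna2, a cyclin of S phase and early mitosis, fell 8.91-fold and 7.49-fold in hepCLiP and bilCLiP. Cdc25c, a phosphatase that activates Cdk1, was the least counted member: it had 2.20, 0.284 and 0.903 CPM in hepCLiP 3D, against 9.81, 9.05 and 12.1 CPM in hepCLiP 2D, the 3D replicate 2 value resting on 4 counts. The count table also lists rows with the symbols Ccnb1-ps, Ccnb2-ps and Kif4-ps, with at most 9, 48 and 0 counts in any library. Their sequences were not compared with those of Ccnb1, Ccnb2 and Kif4. Whether reads were split with these rows was not tested, and these 3 genes are uncertain to that extent.

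Foxm1, a transcription factor that drives many genes of G2 and mitosis, fell with them. It had 18.53, 4.19 and 11.2 CPM in hepCLiP 3D, against 71.47, 78.7 and 124 CPM in hepCLiP 2D. In bilCLiP the values were 10.4, 4.48 and 8.47 CPM in bilCLiP 3D, against 62.3, 67.8 and 36.8 CPM in bilCLiP 2D. The log2 fold changes were -3.02 ± 0.51 (SE; adjusted p = 0.00137) in hepCLiP and -2.84 ± 0.51 (adjusted p = 0.00220) in bilCLiP. The division markers Mki67, whose product Ki-67 coats mitotic chromosomes, and Top2a, which untangles DNA, fell less than the median member in both origins. Mki67 had 43.7, 8.02 and 26.6 CPM in hepCLiP 3D, against 115, 128 and 167 CPM in hepCLiP 2D, and in bilCLiP 25.9, 11.4 and 26.9 CPM in bilCLiP 3D, against 116, 107 and 70.8 CPM in bilCLiP 2D. It fell 5.23-fold in hepCLiP (adjusted p = 0.00549) and 4.57-fold in bilCLiP (adjusted p = 0.00951). Top2a had 45.1, 17.1 and 33.8 CPM in hepCLiP 3D, against 167, 202 and 239 CPM in hepCLiP 2D, and in bilCLiP 46.96, 18.9 and 42.8 CPM in bilCLiP 3D, against 193, 186 and 111 CPM in bilCLiP 2D. Its falls were 6.33-fold (adjusted p = 0.000937) in hepCLiP and 4.51-fold (adjusted p = 0.00292) in bilCLiP.

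The polo kinases and aurora A fell in both origins. Plk1, the polo kinase of mitotic entry and cytokinesis, had 12.3, 3.05 and 6.39 CPM in hepCLiP 3D, against 59.2, 68.01 and 57.7 CPM in hepCLiP 2D. For bilCLiP the values were 7.90, 2.53 and 6.61 CPM in bilCLiP 3D, against 39.9, 38.8 and 22.2 CPM in bilCLiP 2D. The 3D levels lay below every 2D level, with log2 fold changes of -3.09 ± 0.51 (SE; adjusted p = 0.00127) in hepCLiP and -2.57 ± 0.50 (adjusted p = 0.00366) in bilCLiP. Plk4, the kinase of centriole duplication, fell 4.36-fold and 3.55-fold in hepCLiP and bilCLiP, and Aurka, the centrosomal aurora A kinase, fell 4.45-fold and 4.07-fold. Whether these 3 kinases fell by different amounts was not tested. In the chromosomal passenger complex, which corrects faulty attachments and marks the division plane, all 4 genes fell in both origins. Aurkb, its kinase aurora B, had 6.89, 2.20 and 4.73 CPM in hepCLiP 3D, against 29.4, 31.7 and 38.1 CPM in hepCLiP 2D, and in bilCLiP 4.74, 1.49 and 4.93 CPM in bilCLiP 3D, against 26.8, 23.2 and 15.8 CPM in bilCLiP 2D. It fell 7.18-fold in hepCLiP (adjusted p = 0.00135) and 5.90-fold in bilCLiP (adjusted p = 0.00268). Birc5, encoding survivin, fell 8.73-fold and 5.78-fold, and Cdca8, encoding borealin, 6.37-fold and 4.51-fold. Incenp, the scaffold of the complex, had 22.9, 11.7 and 16.54 CPM in hepCLiP 3D, against 71.2, 77.8 and 93.3 CPM in hepCLiP 2D. Its bilCLiP values were 22.1, 9.19 and 15.1 CPM in bilCLiP 3D, against 59.4, 44.50 and 32.8 CPM in bilCLiP 2D, the smallest bilCLiP fall of the 42 genes at -1.56 ± 0.34 (log2, SE; adjusted p = 0.00611).

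The spindle checkpoint fell as a group, by a median of -2.71 (log2) in hepCLiP and -2.27 in bilCLiP over 4 genes. Bub1, a kinase of the kinetochore, had 7.84, 1.49 and 6.32 CPM in hepCLiP 3D, against 37.05, 58.6 and 54.4 CPM in hepCLiP 2D. The bilCLiP libraries had 6.06, 2.53 and 6.38 CPM in bilCLiP 3D, against 57.9, 54.8 and 28.98 CPM in bilCLiP 2D. It was among the members with the larger falls in both origins, at 9.58-fold in hepCLiP (adjusted p = 0.00148) and 9.47-fold in bilCLiP (adjusted p = 0.00177). Bub1b, encoding BubR1, fell 5.71-fold and 4.70-fold, and Ttk, encoding the Mps1 kinase, 7.53-fold and 4.93-fold. Mad2l1, encoding Mad2, which holds Cdc20 inactive, had 13.4, 6.46 and 14.04 CPM in hepCLiP 3D, against 50.1, 59.96 and 58.4 CPM in hepCLiP 2D, and in bilCLiP 13.2, 11.4 and 17.9 CPM in bilCLiP 3D, against 53.9, 55.7 and 39.54 CPM in bilCLiP 2D. Its falls of 4.97-fold and 3.51-fold carried the lowest adjusted p of the members in each origin, 0.000289 and 0.00108. The 3 genes of anaphase onset fell by a median of -2.99 and -2.87 (log2). Cdc20, the activator of the anaphase-promoting complex, had 16.4, 3.62 and 7.64 CPM in hepCLiP 3D, against 69.3, 69.2 and 81.7 CPM in hepCLiP 2D. For bilCLiP the values were 7.05, 2.12 and 5.57 CPM in bilCLiP 3D, against 46.6, 35.1 and 25.7 CPM in bilCLiP 2D. It fell 7.96-fold in hepCLiP (adjusted p = 0.00184) and 7.30-fold in bilCLiP (adjusted p = 0.00282). Ube2c, the ubiquitin-conjugating enzyme of that complex, fell 9.93-fold and 7.73-fold, and Espl1, encoding separase, 6.77-fold and 6.38-fold.

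The 6 genes of the centromere and kinetochore included Cenpa and Spc25, which were among the 3 smallest falls in each origin. Cenpa, the histone H3 variant of centromeres, had 11.3, 4.75 and 15.3 CPM in hepCLiP 3D, against 29.7, 36.9 and 43.2 CPM in hepCLiP 2D. Its bilCLiP values were 10.9, 4.19 and 11.4 CPM in bilCLiP 3D, against 35.2, 27.2 and 19.54 CPM in bilCLiP 2D. It fell 3.496-fold in hepCLiP (adjusted p = 0.0108) and 3.10-fold in bilCLiP (adjusted p = 0.0198), the highest adjusted p-values of the members. In bilCLiP the call did not survive leaving out replicate 2 of the 3D group (adjusted p = 0.0603) or replicate 1 of the 2D group (adjusted p = 0.0618). Ndc80, a subunit of the microtubule-binding complex of the same name, had 3.37, 0.710 and 3.54 CPM in hepCLiP 3D, against 15.3, 18.2 and 22.2 CPM in hepCLiP 2D, and in bilCLiP 2.83, 1.09 and 3.37 CPM in bilCLiP 3D, against 18.3, 17.4 and 11.6 CPM in bilCLiP 2D. It fell 7.29-fold in hepCLiP (adjusted p = 0.00270) and 6.48-fold in bilCLiP (adjusted p = 0.00421). Spc25, a subunit of the same complex, had 12.9, 7.09 and 8.34 CPM in hepCLiP 3D, against 23.4, 25.3 and 32.2 CPM in hepCLiP 2D, and in bilCLiP 8.89, 7.75 and 8.82 CPM in bilCLiP 3D, against 37.8, 27.9 and 19.3 CPM in bilCLiP 2D. Its log2 fold change of -1.52 ± 0.28 (SE; adjusted p = 0.00217) in hepCLiP was the smallest of the 42 genes there, and in bilCLiP it was -1.74 ± 0.28 (adjusted p = 0.00127). Nuf2, a further subunit of the complex, fell 5.34-fold and 4.29-fold. Cenpe, a kinetochore motor, and Cenpf, a large coiled-coil protein of the kinetochore, fell 6.66-fold and 6.87-fold in hepCLiP and 6.17-fold and 6.69-fold in bilCLiP.

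Among the motors and spindle proteins, Kif23 stood at the head of the list. Kif23 encodes MKLP1, the kinesin of the central spindle and midbody. It had 7.33, 3.62 and 7.09 CPM in hepCLiP 3D, against 69.9, 82.3 and 86.2 CPM in hepCLiP 2D. The bilCLiP libraries had 11.1, 2.53 and 11.02 CPM in bilCLiP 3D, against 110.5, 60.6 and 39.45 CPM in bilCLiP 2D. The log2 fold change was -3.72 ± 0.56 (SE; adjusted p = 0.000760) in hepCLiP, the largest fall of the 42 genes there, and -3.10 ± 0.54 (adjusted p = 0.00198) in bilCLiP. Kif11, the bipolar kinesin Eg5 that pushes spindle poles apart, had 16.2, 4.26 and 13.3 CPM in hepCLiP 3D, against 53.7, 62.2 and 68.3 CPM in hepCLiP 2D, and in bilCLiP 10.1, 4.42 and 9.57 CPM in bilCLiP 3D, against 46.2, 46.95 and 30.7 CPM in bilCLiP 2D. It fell 5.45-fold in hepCLiP (adjusted p = 0.00212) and 5.15-fold in bilCLiP (adjusted p = 0.00298). The other kinesins Kif20a, Kif20b, Kif2c, Kif4 and Kif18b fell 4.87-fold (Kif20b) to 9.82-fold (Kif18b) in hepCLiP and 3.97-fold (Kif20b) to 6.90-fold (Kif20a) in bilCLiP. Tpx2, which activates aurora A and nucleates microtubules, had 16.04, 3.48 and 13.48 CPM in hepCLiP 3D, against 72.3, 71.8 and 86.9 CPM in hepCLiP 2D, and in bilCLiP 12.1, 4.08 and 11.49 CPM in bilCLiP 3D, against 73.9, 59.00 and 36.8 CPM in bilCLiP 2D. It fell 7-fold in hepCLiP (adjusted p = 0.00279) and 6.15-fold in bilCLiP (adjusted p = 0.00457). Prc1, which bundles the central spindle, fell 5.41-fold and 3.66-fold, Nusap1, a microtubule stabilizer, 4.64-fold and 4.21-fold, and Hmmr, a spindle pole protein, 6.78-fold and 7.11-fold.

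Among the cytokinesis genes, Anln had the largest fall of the 42 in bilCLiP. Anln encodes anillin, a scaffold of the contractile ring. It had 14.50, 3.55 and 9.17 CPM in hepCLiP 3D, against 101, 103 and 132 CPM in hepCLiP 2D. For bilCLiP the values were 10.2, 3.04 and 8.64 CPM in bilCLiP 3D, against 133, 59.4 and 39.3 CPM in bilCLiP 2D, where the 2D libraries differed 3.39-fold among themselves. The log2 fold change was -3.63 ± 0.62 (SE; adjusted p = 0.00145) in hepCLiP and -3.41 ± 0.61 (adjusted p = 0.00230) in bilCLiP. Ect2, the exchange factor that activates RhoA at the division plane, had 16.3, 4.19 and 10.8 CPM in hepCLiP 3D, against 56.4, 74.7 and 73.7 CPM in hepCLiP 2D, and in bilCLiP 10.8, 4.30 and 11.7 CPM in bilCLiP 3D, against 53.7, 54.2 and 32.4 CPM in bilCLiP 2D. It fell 6.54-fold in hepCLiP (adjusted p = 0.00185) and 5.23-fold in bilCLiP (adjusted p = 0.00407). Racgap1, the partner of MKLP1 in the central spindle, fell 6.81-fold and 5.65-fold.

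The libraries of a group differed in a shared way across the members. In hepCLiP 3D, replicate 2 held the lowest value for all 42 genes and replicate 1 the highest for 34. In bilCLiP 3D, replicate 2 again held the lowest value for all 42, with the highest in replicate 1 for 25 genes and in replicate 3 for 17. The highest library stood above the lowest by a median of 4.08-fold in hepCLiP 3D, from 1.82-fold for Spc25 to 7.74-fold for Cdc25c, and by a median of 1.33-fold in hepCLiP 2D. In bilCLiP the median was 2.502-fold in 3D, from 1.15-fold for Spc25 to 4.89-fold for Ccnb2, and 1.80-fold in 2D. In bilCLiP 2D, replicate 3 was the lowest for all 42 genes. Without both 3D replicate 2 libraries, a choice made after seeing the data, all 42 members were still called lower in each origin, with median log2 fold changes of -2.28 in hepCLiP and -2.18 in bilCLiP. In hepCLiP 3D, replicate 2 is the RosaYFP library, and without hepCLiP 2D replicate 3, the library with the contradicting tag, the hepCLiP median was -2.66 with 42 called. When only RosaYFP libraries were kept, leaving 1 hepCLiP library per culture, 29 of 42 members were called in hepCLiP at a median of -4.14.

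**Figure D3:**
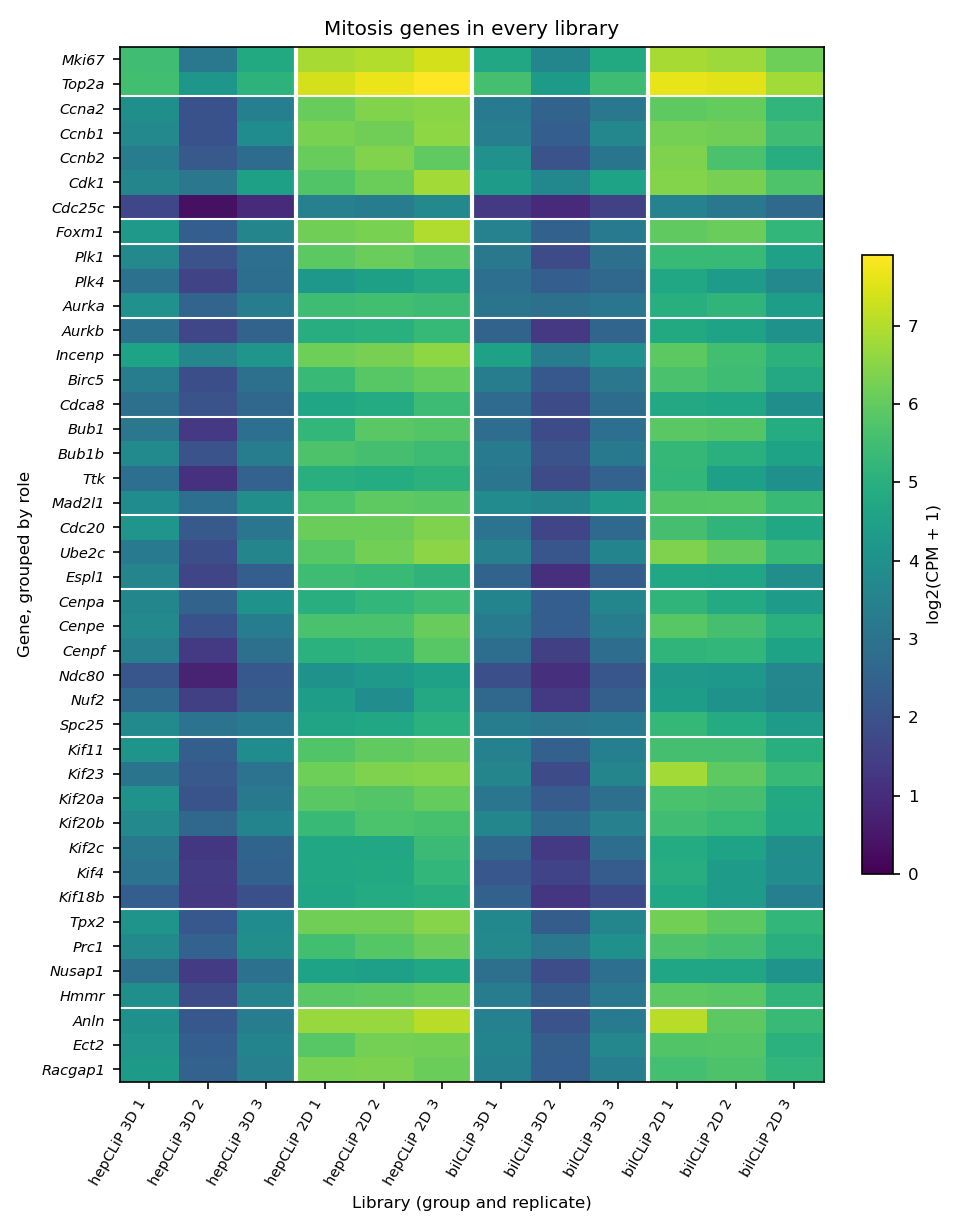
Level of the 42 mitosis genes, as log2(CPM + 1), in each of the 12 libraries, with genes grouped by role and white lines between groups and roles. Within each origin the 3D columns are darker than the 2D columns in every row, and replicate 2 is the darkest of each 3D group.

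Between origins, none of the 42 members was called. The origins also differ in genes of the sex chromosomes, named after their values were seen. Xist, the RNA that silences an X chromosome, had 812 to 1163 CPM in the 6 bilCLiP libraries and at most 0.284 CPM in the 6 hepCLiP libraries. Ddx3y, a Y-linked gene, had 0 counts in every bilCLiP library, 57.3 to 128 CPM in hepCLiP replicates 1 and 3 of both cultures, and at most 1 count in hepCLiP replicate 2. Origin and the Xist level cannot be told apart here. The Ddx3y level varied within hepCLiP, where it went with the reporter genotype: RosaConfetti in replicates 1 and 3, RosaYFP in replicate 2. All bilCLiP libraries carried RosaYFP, so reporter genotype also differs in part between the origins. In 2D, the bilCLiP libraries summed to 1800 ± 531 CPM and the hepCLiP libraries to 2452 ± 329 CPM (mean ± SD, n = 3 each), and 41 of 42 members had a negative log2 fold change of bilCLiP over hepCLiP, with a median of -0.43. Leaving out 1 library moved this median to -0.22 without bilCLiP 2D replicate 3 (36 negative) and to -0.65 without bilCLiP 2D replicate 1 (42 negative). Calls were also few among all genes, at 0.135% (20 genes, against 546 with DESeq2's Wald test). An unadjusted p under 0.05 in edgeR's quasi-likelihood test was found for 1 member, Incenp, and for 2146 of all 14798 tested genes. Incenp had 59.4, 44.50 and 32.8 CPM in bilCLiP 2D, against 71.2, 77.8 and 93.3 CPM in hepCLiP 2D, and its log2 fold change was -0.83 ± 0.33 (SE, adjusted p = 0.297). Cdc20 had the largest difference, at -1.03 ± 0.49 (log2, SE; adjusted p = 0.364), with 46.6, 35.1 and 25.7 CPM in bilCLiP 2D, against 69.3, 69.2 and 81.7 CPM in hepCLiP 2D. For 13 of the 42 members, every bilCLiP 2D library was below every hepCLiP 2D library, against 1764 of all 14798 tested genes (11.9%). These members were Ccna2, Foxm1, Plk1, Aurka, Aurkb, Incenp, Bub1b, Cdc20, Espl1, Kif11, Kif20a, Ect2 and Racgap1. The larger share among the members was not tested. In 3D, the bilCLiP libraries summed to 339 ± 131 CPM and the hepCLiP libraries to 369 ± 191 CPM. There 30 members had a negative and 12 a positive log2 fold change, from -0.91 ± 0.52 for Cdc20 (adjusted p = 0.397) to 0.45 ± 0.53 for Kif23 (adjusted p = 0.698), with a median of -0.16, and no member separated the origins without overlap, while 21.8% of all tested genes did so in either direction. The direction in 3D turned with single libraries: without hepCLiP 3D replicate 1, 5 members were negative and the median was 0.18, without bilCLiP 3D replicate 2, 11 were negative and the median was 0.12, and without hepCLiP 3D replicate 2, 38 were negative and the median was -0.57. The median was also moved to -0.39 without bilCLiP 3D replicate 1, to -0.40 without bilCLiP 3D replicate 3 and to -0.07 without hepCLiP 3D replicate 3. With library totals alone, 20 members were negative and the median was 0.01. The share of all tested genes called in 3D was 0.101% (15 genes, against 622 with DESeq2's Wald test). A missed call does not show equal levels: the 95% interval of the Cdk1 log2 fold change ran from -0.99 to 0.74 in 2D and from -0.46 to 1.32 in 3D.

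The fall with 3D culture was not called different between the origins for any member, nor for any of the 14798 genes in edgeR's quasi-likelihood test, where 532 genes, and none of the members, had an unadjusted p under 0.05. DESeq2's Wald test called 7 genes, none of them a member. The difference of the log2 fold changes, bilCLiP minus hepCLiP, was positive for 39 of 42 members, with a median of 0.27. This direction rested on single libraries: without hepCLiP 3D replicate 2, 28 members were negative and the median was -0.11. The median was 0.02 without bilCLiP 3D replicate 1, 0.08 without bilCLiP 3D replicate 3, 0.08 without bilCLiP 2D replicate 3 and 0.16 without hepCLiP 2D replicate 3, with 19, 16, 18 and 8 members negative. It was 0.65 without hepCLiP 3D replicate 1, 0.56 without bilCLiP 3D replicate 2 and 0.44 without bilCLiP 2D replicate 1. With all libraries, the difference ran from -0.22 ± 0.39 (SE) for Spc25 to 0.82 ± 0.75 for Ccnb2, and the 95% interval for Ccnb2 was -0.84 to 2.48. Incenp had a difference of 0.68 ± 0.47, with a 95% interval of -0.36 to 1.72. For all 42 members the 2 fold changes lay within 2-fold of each other. Across the 42 members, the fold changes of the 2 origins had a Pearson correlation of 0.860 and a Spearman correlation of 0.854, against 0.907 and 0.856 across all 14798 genes. Genes are not independent replicates, and the members share libraries and depth, so these correlations are descriptions.

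Other genes of the division machinery were read from lists by function, chosen with earlier results of these data known. In each list the background was 17.9% of tested genes lower and 16.9% higher in hepCLiP, and 14.5% lower and 15.8% higher in bilCLiP. Of 8 condensin subunits, which compact chromosomes, 7 fell in each origin, with median log2 fold changes of -1.90 in hepCLiP and -1.78 in bilCLiP, with Ncapg first (-2.77 ± 0.49 and -2.42 ± 0.48, SE) and Ncapd2 at -2.33 ± 0.41 and -1.75 ± 0.40 and Ncapg2 at -2.02 ± 0.43 and -1.93 ± 0.43. Ncaph2, a subunit of condensin II, was not called in either origin, at -0.29 ± 0.18 (adjusted p = 0.239) and 0.00 ± 0.18 (adjusted p = 0.993). Of 7 further kinesins, 6 fell in hepCLiP and 5 in bilCLiP. They were led by Kifc1, a minus-end motor, at -3.09 ± 0.49 and -2.54 ± 0.48. Kif15 followed at -2.95 ± 0.61 and -2.48 ± 0.59, and Kif14 at -2.81 ± 0.63 and -2.38 ± 0.62. Kif3b, named after its values were seen, had the smallest change in each origin, at -0.0075 and -0.23, and was called in neither. Of 34 further kinetochore genes, 26 fell and 1 rose in hepCLiP and 22 fell and 1 rose in bilCLiP, with medians of -1.66 and -1.11. Zwilch, of the complex that recruits dynein, led them in hepCLiP at -3.13 ± 0.52 and had -2.21 ± 0.49 in bilCLiP; the outer kinetochore genes Knl1 and Ska3 had -2.78 ± 0.60 and -2.76 ± 0.54 in hepCLiP and -2.75 ± 0.60 and -2.53 ± 0.53 in bilCLiP. The gene that rose was Cenpx, named after its values were seen, at 0.43 ± 0.14 (adjusted p = 0.0381) and 0.98 ± 0.15 (adjusted p = 0.000821); its product also serves in DNA repair. Scaled by library totals alone, which moved the median of all genes to -0.63 in hepCLiP and -0.47 in bilCLiP, Cenpx had -0.14 in hepCLiP and was not called there (adjusted p = 0.454), and 0.51 in bilCLiP (adjusted p = 0.0170).

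Of 17 further mitotic kinases, phosphatases and their regulators, 14 fell and 1 rose in hepCLiP, and 9 fell and 1 rose in bilCLiP. Melk, a kinase of dividing cells, fell by 3.39 on the log2 scale in hepCLiP and by 2.81 in bilCLiP, Pbk by 2.69 and 1.82, and Nek2 by 2.48 and 2.56. Ensa, a phosphatase inhibitor, was the gene that rose (0.44 ± 0.11 and 0.52 ± 0.11), but with library totals alone it had -0.13 and 0.05 and was called in neither origin. Of 21 genes of centrosomes and spindle assembly, 18 fell in hepCLiP and 15 in bilCLiP, with Dlgap5, Tacc3 and Spag5 as the 3 largest falls in each origin and medians of -1.14 and -1.09. Of 16 genes of cytokinesis and abscission, 9 and 7 fell, with medians of -0.77 and -0.57. Cep55, a midbody protein needed for abscission, fell by 3.50 and 2.82, Cit by 2.16 and 2.23, and Arhgap11a by 2.20 and 2.09. Rhoa itself, the GTPase of the contractile ring and of many other structures, had 222 ± 41.4 CPM in hepCLiP 3D and 328 ± 62.51 CPM in hepCLiP 2D (SD, n = 3 each) and was not called (adjusted p = 0.0617).

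Smaller medians were found for the lists of cohesin and of the anaphase-promoting complex. Of 14 genes of cohesin and its protectors, 7 fell in hepCLiP and 6 in bilCLiP, with medians of -0.40 and -0.27. Sgo1 and Sgo2a, the shugoshins that guard centromeric cohesin, and Cdca5, encoding sororin, fell by 3.00, 2.56 and 2.48 (log2) in hepCLiP and by 2.87, 2.57 and 1.65 in bilCLiP. Pttg1, encoding securin, fell in hepCLiP, at -1.38 ± 0.39 (adjusted p = 0.0184), but not in bilCLiP, at 0.24 ± 0.38 (adjusted p = 0.677). The difference for Pttg1, bilCLiP minus hepCLiP, was 1.62 ± 0.54 and was not called. Smc3, a subunit of the cohesin ring, had a log2 fold change of -0.21 ± 0.10 in hepCLiP and -0.04 ± 0.10 in bilCLiP. Smc3 was called in neither. Its ring partner Smc1a fell in both origins, at -0.74 ± 0.12 (adjusted p = 0.00131) and -0.41 ± 0.12 (adjusted p = 0.0303), and Rad21, the ring's cleavable subunit, fell in hepCLiP, at -0.52 ± 0.16 (adjusted p = 0.0290), and had -0.36 ± 0.16 in bilCLiP (adjusted p = 0.119). Of 17 genes of the anaphase-promoting complex and its regulators, 10 fell and 1 rose in hepCLiP and 5 fell and 1 rose in bilCLiP, with medians of -0.47 and -0.34. Fbxo5, encoding the inhibitor Emi1, fell by 2.55 and 1.63, Anapc15 by 1.42 and 1.42, and Anapc16, a small subunit, rose by 0.44 ± 0.11 and 0.46 ± 0.11, but with library totals alone it had -0.13 in hepCLiP and 0.00 in bilCLiP and was called in neither. Cdc27, a core subunit, was called in neither origin (-0.12 ± 0.10 and -0.12 ± 0.10). Pttg1, Smc3, Smc1a, Rad21, Ensa, Ncaph2, Rhoa, Anapc16 and Cdc27 were named after their values were seen. That these lists fell less than the 42 members is a comparison of medians and was not tested.

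**Figure D4:**
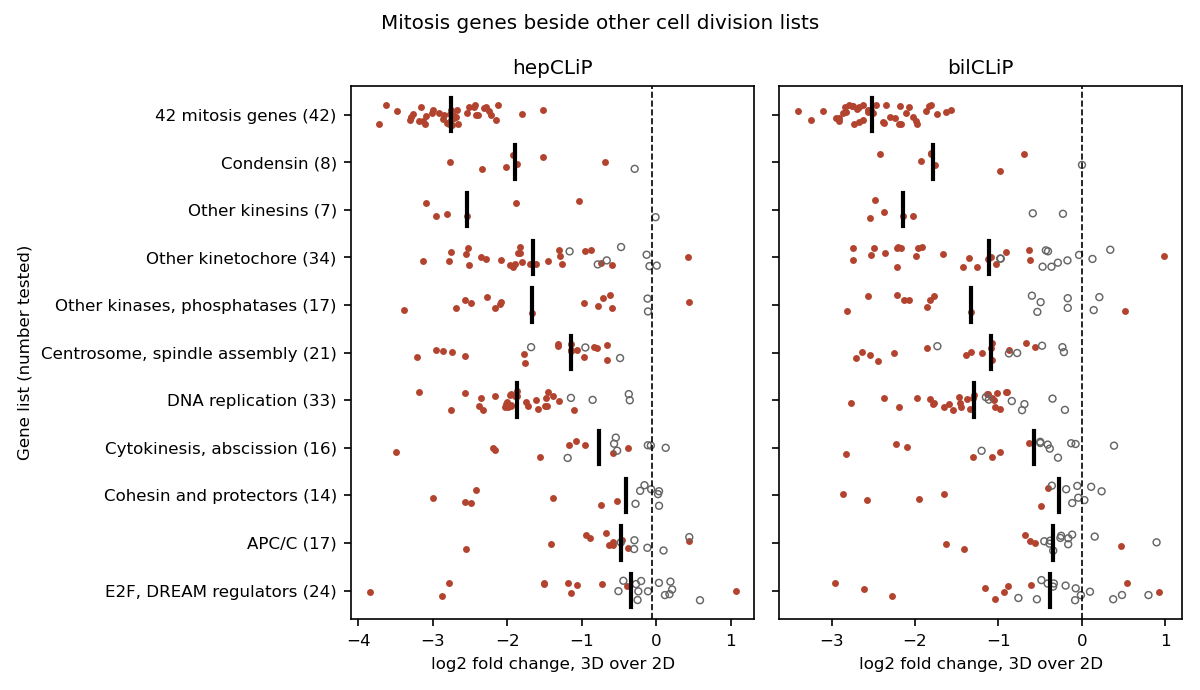
Log2 fold changes (x axis), 3D over 2D, of the 42 mitosis genes and of 10 further lists in hepCLiP (left) and bilCLiP (right), each point a tested gene (filled where called, open where not), each bar a list's median and the dashed line the median of all tested genes. The 42 members have medians of -2.76 and -2.51, while the anaphase-promoting complex list has medians of -0.47 and -0.34.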

How the data were processed

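The authors deposited raw read counts per gene (unit counts) for 12 libraries and a second table of normalized counts (unit signal); in the deposited signal table, each library's values are its counts divided by a size factor. Per the submitters' processing notes, STAR 2.7.10b, featureCounts 2.0.1, DESeq2 and build GRCm39 were used; the gene annotation is not given in the sources used here, nor is strandedness; reads from overlapping or antisense genes therefore cannot be told apart. Column names were matched to sample descriptions.

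Counts were fitted in R 4.3.3 with edgeR 4.0.16: filterByExpr (14798 of 53599 genes), TMM, and a robust quasi-likelihood fit with 4 group means over all 12 libraries. A call is a Benjamini-Hochberg adjusted p under 0.05 over all tested genes. CPM are counts scaled to a common library size with TMM factors; each standard error (SE) is the log2 change divided by the root of its F value. Depth was 16142365 to 21253382 counts per library, and the lowest member count was 4. The edgeR fit was tested on simulated counts with known changes in the hepCLiP culture contrast. Promoter motifs were searched in RefSeq windows, taking the first listed window of a gene.

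Same-numbered 3D and 2D libraries deviated together from their group means (r = 0.474 to 0.513 in hepCLiP, 0.432 to 0.507 in bilCLiP, across genes). All 6 exceeded 0.1, so the numbers were taken to pair the libraries; in hepCLiP the same number also shares the genotype. Alternatives comprised other scalings, filters, tests (DESeq2 1.42.0, limma 3.58.1 on log2(normalized count + 1)), the replicate block, RosaYFP libraries only, and leaving out each library. Members, lists and tests were chosen with earlier results of these data known. Named with values per library were 16 anchor members and the largest and smallest fall per culture contrast; from other lists, the 3 largest called changes; others are said to be chosen later, except members given with shorter values for their role.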

Additional observations from a re-analysis of the deposited data

How the results depend on the processing

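Of 2016 results for the 42 members in the culture contrasts under all alternatives, 1989 kept direction and call, 27 kept direction and lost the call, and 0 reversed. Not all of these could change a call. The alternative of 2-fold or more could not, because all 42 members fell by more than 2-fold in each origin. A left-out library of the other origin enters a culture contrast only through the shared filter, scaling and spread. With RosaYFP libraries only, where hepCLiP has 1 library per culture and its spread is taken from bilCLiP, 29 members were called in hepCLiP. A test against 2-fold called 40 members in hepCLiP (Cenpa and Spc25 lost) and 32 in bilCLiP. With the replicate block, 42 and 42 members were called, with medians of -2.93 and -2.55, and no member's call changed. Leaving out 1 library gave 42 to 42 members in hepCLiP and 41 to 42 in bilCLiP, with medians of -3.17 to -2.36 and -2.73 to -2.20. Scaling by library totals alone shifted the median of all genes to -0.63 and -0.47, gave member medians of -3.32 and -2.97, and moved the share of lower among called genes to 83.7% and 80.1%, against 51.4% and 47.9%. Calls over all genes with culture in hepCLiP were 5139, against 7915 with library totals, 769 with RosaYFP libraries, 3142 at 2-fold or more, 1492 tested against 2-fold, and 4133 to 5227 leaving out 1 library. In bilCLiP they were 4485, against 6763, 2816 and 1290 (library totals, 2-fold or more, against 2-fold) and 3088 to 4555 leaving out 1 library. Between origins in 2D they were 20, against 546 (DESeq2), 38 (limma), 5 (6 libraries), 5 (against 2-fold), 6 to 31 leaving out 1 library, and 8 without both 3D replicate 2 libraries, an alternative chosen after seeing the data. Between origins in 3D they were 15, against 622, 26, 3 and 7 under the same alternatives, 3 to 251 leaving out 1 library (251 without hepCLiP 3D replicate 3), and 3 without both 3D replicate 2 libraries. For the difference they were 0, against 7 (DESeq2) and 0 to 3 leaving out 1 library. No member was called between origins or for the difference under any of these. The cause of these moves was not tested.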

Other observations

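DNA replication genes also fell with 3D culture. Of 33 genes of S phase, 29 fell in hepCLiP 3D and 26 in bilCLiP 3D, with median log2 fold changes of -1.87 and -1.29. Of all tested genes, 17.9% were called lower in hepCLiP and 14.5% in bilCLiP. Rrm2, the ribonucleotide reductase subunit that supplies deoxynucleotides, had 26.6 ± 17.98 CPM in hepCLiP 3D and 243 ± 119 CPM in hepCLiP 2D (SD, n = 3 each), and fell by 3.19 (log2) in hepCLiP and by 2.77 in bilCLiP, the largest fall of the list in each; Uhrf1 and Pole came next in both. The summed mitosis level was 83.6%, 46.0% and 80.3% of the summed S-phase level in hepCLiP 3D replicates 1, 2 and 3, against 148%, 130% and 124% in hepCLiP 2D. In bilCLiP it was 71.0%, 51.2% and 69.7% in 3D, against 154%, 125% and 118% in 2D. This ratio within a library does not depend on how libraries are scaled, and every 3D library lay below every 2D library. Whether the lists fell by different amounts was not tested.

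Among 24 genes of the E2F and DREAM regulators and the cell cycle inhibitors, 10 fell and 1 rose in hepCLiP 3D, and 8 fell and 2 rose in bilCLiP 3D. Of all tested genes, 17.9% were called lower and 16.9% higher in hepCLiP, and 14.5% lower and 15.8% higher in bilCLiP. E2f7, a repressor of the E2F family, fell by 3.85 (log2) in hepCLiP and by 2.96 in bilCLiP, followed by Mybl2, which joins the MuvB complex in dividing cells, and E2f8. Rbl2, encoding the pocket protein p130 of the DREAM repressor, had 39.8, 51.51 and 43.6 CPM in hepCLiP 3D, against 22.3, 22.96 and 18.98 CPM in hepCLiP 2D. In bilCLiP it had 38.99, 43.7 and 35.3 CPM in 3D, against 19.7, 19.6 and 22.8 CPM in 2D. It rose by 1.07 ± 0.15 (log2, SE; adjusted p = 0.000434 in edgeR's quasi-likelihood test) in hepCLiP and by 0.93 ± 0.14 (adjusted p = 0.00106) in bilCLiP. With scaling by library totals alone, Rbl2 was still called, at 0.50 (adjusted p = 0.0138) in hepCLiP and 0.45 (adjusted p = 0.0245) in bilCLiP. The other rise was Lin37 in bilCLiP, at 0.54 ± 0.18 (adjusted p = 0.0456), which was not called with library totals alone (0.07, adjusted p = 0.802). Cdkn1a, encoding the Cdk inhibitor p21, had 142 ± 37.2 CPM in hepCLiP 3D and 171 ± 28.01 CPM in hepCLiP 2D (SD, n = 3 each) and was not called in either origin, nor were Cdkn1b and Cdkn1c. Rbl2, Lin37 and the Cdk inhibitors were named after their values were seen.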
